A study of Homo sapiens with 12 samples.

Results

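Interferon response genes are transcripts that cells switch on when interferons bind their surface receptors. A list of 40 such genes was followed in HK-2 cells, which derive from proximal tubule epithelium of the human kidney and were immortalized. The genes were chosen by symbol for their known roles, with earlier results of these data known. Of the 40 listed, 39 had a probe set that the annotation assigned to a single gene, and 31 of these 39 lay above a log2 value of 4 on at least 3 of 12 arrays and were tested among 10665 genes in all. STAT2, a transcription factor below the interferon receptors, was not analysed here. The groups were HK-2 cells given a low dose of Kbr for 24 h, control cells given vehicle for 24 h, cells given the low dose of Kbr for 48 h and control cells given vehicle for 48 h, with 3 biological replicates and so 3 Affymetrix arrays in each of the 4 groups. All groups were grown as plated monolayers in the same medium with epidermal growth factor, hydrocortisone, insulin, transferrin and selenite, and all are a single immortalized line. The sources used here give neither the full name and concentration of Kbr nor the vehicle. The study these arrays belong to looked for expression signatures of toxicity to the kidney.

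Type I interferons bind the receptor chains IFNAR1 and IFNAR2, whose kinases JAK1 and TYK2 phosphorylate transcription factors such as STAT2. With IRF9 these bind interferon-stimulated response elements in promoters, while interferon gamma acts through IFNGR1 and IFNGR2 on a different element, the gamma-activated site. Sensors of viral RNA and DNA inside the cell start interferon production, and the induced genes restrict viral entry, translation and replication. Renal tubular epithelial cells carry these receptors and sensors and can start the program themselves.

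Medians of the 12 arrays were 2.91 to 2.99 on the log2 scale, and 39.95 to 40.42% of probe sets exceeded the floor of 4 on each array. As a sign of RNA quality, the 3′ minus 5′ control probe sets of ACTB gave a log2 difference of 0.854 ± 0.11 (SD, n = 3) in Kbr cells and 0.794 ± 0.17 in control cells at 24 h, and 0.909 ± 0.15 in Kbr cells and 0.815 ± 0.19 in control cells at 48 h. Of 15 markers of renal epithelium, 14 had a probe set and 7 were tested. AQP1, LRP2, CUBN, GGT1, ANPEP, MME and PAX2, several of them defining for the proximal tubule, stayed below the filter. Of the tested renal markers, SLC3A1, KRT19, CDH1 and EPCAM were lower with Kbr at 48 h (log2 changes -1.91, -0.96, -1.49 and -0.41; CDH1 was lost without Kbr replicate 2 or control replicate 3 of 48 h, at an adjusted p up to 0.0524). The other 3 did not pass, with -0.66 for KRT8, 0.36 for KRT18 and 0.40 for PAX8, but did with the replicate number as a block in the fit (adjusted p = 0.00043, 0.0179 and 0.0163). At 24 h SLC3A1 (-1.34), KRT19 (-0.85) and CDH1 (-1.75) were lower (adjusted p = 0.021, 0.0363 and 0.0373), and each was lost in some fits without 1 array (up to 0.0965, 0.131 and 0.108), while PAX8 had 0.53 (adjusted p = 0.137, and 0.0133 with the block). The summed log2 value of the 14 renal markers lay at 89.8 to 93.0 in Kbr cells and at 95.1 to 96.4 in control cells at 24 h, and at 90.3 to 93.0 in Kbr cells and at 95.05 to 98.2 in control cells at 48 h. Of 13 leukocyte markers, 11 had a probe set and 1 (LILRA4) passed the filter, and their summed log2 value lay at 28.6 to 29.9 in Kbr cells and at 28.5 to 29.2 in control cells at 24 h, and at 28.7 to 29.1 in Kbr cells and at 29.0 in all control arrays at 48 h. All 5 endothelial markers stayed below the filter, and 3 of 6 fibroblast markers (COL1A1, DCN and LUM) were tested and were lower with Kbr at 48 h (log2 changes -2.06, -1.69 and -1.62). At 24 h COL1A1 (-1.30, adjusted p = 0.00889) and DCN (-0.73, adjusted p = 0.0408) were lower, and LUM (-0.46, adjusted p = 0.242) did not pass. COL1A1 was kept in 12 of 12 fits without 1 array, and DCN in 3 (up to 0.156). COL1A2, COL3A1 and PDGFRB stayed below the filter. The summed log2 value of the 6 fibroblast markers lay at 36.7 to 38.4 in Kbr cells and at 39.3 to 40.5 in control cells at 24 h, and at 32.8 to 33.6 in Kbr cells and at 38.3 to 38.8 in control cells at 48 h. The part of the marker changes in the results below was not tested. In such extracts of whole cultures, fewer cells with a transcript and less of it per cell cannot be told apart, and the p-values measure the spread between these replicates.

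The promoters of the genes followed were read first, since the response is known for 2 short elements in them. RefSeq promoter windows of GRCh38.p14, each 300 bases long with 250 bases before and 50 after a transcription start, were at hand for 32 of the 40 listed genes, in 44 windows. Both strands were searched for GAAA, any 2 bases and GAAA, which reads TTTC, any 2 bases and TTTC on the other strand and is a loose form of the interferon-stimulated response element. They were also searched for TTC, any 3 bases and GAA, a loose form of the gamma-activated site that reads the same on either strand. Matches of a motif may share bases, and the motifs share letters, so that a match of one can overlap a match of the other. The response element form was in 25 of the 44 windows (56.8%), against 1255 of all 35116 windows (3.57%), and 21 of the 32 genes had it in at least 1 window. The gamma-activated form was in 12 of the 44 windows (27.3%), against 7.66% of all windows. The stretches shown belong to the genes whose levels are described most closely, first genes with higher values in Kbr cells at 24 h, then genes lower at 48 h, and last IRF1 and IFI35, which had no match of the first form. Each is read 5′ to 3′ on the strand of its gene, and capitals mark matches of the response element form, or of the gamma-activated form in the stretches of IRF1 and IFI35. The PARP14 stretch also holds a match of the gamma-activated form, left in lower case. IFITM1 has a further match of each form outside its stretch. They begin at -6 (response element) and -12 (gamma-activated) relative to the transcription start.
IFIT3 (chr10:89332420-89332502, plus strand): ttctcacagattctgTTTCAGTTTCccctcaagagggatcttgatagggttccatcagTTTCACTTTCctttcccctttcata
IFIT1 (chr10:89392492-89392544, plus strand): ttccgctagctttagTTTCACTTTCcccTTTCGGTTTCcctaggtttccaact
OAS3 (chr12:112938316-112938473, plus strand): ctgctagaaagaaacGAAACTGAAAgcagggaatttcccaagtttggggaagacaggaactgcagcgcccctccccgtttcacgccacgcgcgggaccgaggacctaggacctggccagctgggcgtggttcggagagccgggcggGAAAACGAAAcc
IFI44L (chr1:78620269-78620399, plus strand): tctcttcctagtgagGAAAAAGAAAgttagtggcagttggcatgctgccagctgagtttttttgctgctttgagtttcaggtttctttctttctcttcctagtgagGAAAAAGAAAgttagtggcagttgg
IFITM1 (chr11:313985-314024, plus strand): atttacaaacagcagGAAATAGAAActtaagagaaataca
IFITM3 (chr11:320871-320927, minus strand): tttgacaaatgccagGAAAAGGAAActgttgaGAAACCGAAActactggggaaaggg
PARP14 (chr3:122680795-122680834, plus strand): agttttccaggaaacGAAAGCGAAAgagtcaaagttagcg
IRF1 (chr5:132490874-132490912, minus strand): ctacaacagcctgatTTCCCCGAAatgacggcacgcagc
IFI35 (chr17:43006747-43006783, plus strand): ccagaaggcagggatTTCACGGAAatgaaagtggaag
A match of these letters is a description of the sequence and not a bound site. The response element form stands before IFIT3 and IFIT1, which had higher values in Kbr cells at 24 h, and also before OAS3, IFI44L, IFITM1, IFITM3, PARP9 and PARP14, which were lower in Kbr cells at 48 h.

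Of the 39 genes with a probe set, 30 lay above the floor on all 12 arrays and RSAD2 did so on 7. The other 8 stayed below it on every array and were not tested. These were ISG20, an exonuclease that degrades viral RNA (highest array 3.99, just under the floor), the synthetases OAS1 (3.71) and OAS2 (3.18), which make the messenger that switches on RNase L, the ISG15 protease USP18 (3.00), the dynamin-like antiviral GTPases MX1 (2.63) and MX2 (1.91), the ubiquitin ligase TRIM22 (2.36) and IFI27 (2.05). These 8 genes had 12 probe sets between them, of which 0 passed the filter. No ligand could be read either. Of 21 interferon ligand genes listed, 18 had a probe set, the beta interferon IFNB1 and the gamma interferon IFNG included, and all 18 lay below the filter, with a highest array of 2.63.

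After 24 h the first comparison asked whether Kbr changed these genes relative to vehicle. IFIT3, which binds foreign RNA together with IFIT1, rose with Kbr, and IFI35, a leucine zipper protein of the response, fell. In all 2 of the 31 tested genes passed limma's test at an adjusted p of 0.05 (6.45%), where 5.74% of all 10665 tested genes passed. Of the 31, 1 was higher, where 2.48% of all genes were, and 1 was lower, where 3.25% were. With the replicate number as a block in the fit the count was 9 of 31 (29.0%), where 24.4% of all genes passed. Then 4 were higher (IFIT1, IFIT2, IFIT3 and OASL), where 10.4% of all genes were, and 5 lower (OAS3, IFI35, IFITM1, IFITM3 and PARP9), where 14.0% were. The median log2 change of the 31 genes was 0.0017, against -0.016 over all genes tested. It became -0.010 after subtraction of array medians. Kbr and control arrays of 24 h did not overlap in 11 of the 31 genes (35.5%), against 31.8% of all genes.

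IFIT3 had log2 values of 10.25, 10.29 and 10.32 in Kbr cells at 24 h, against 9.70, 9.64 and 9.78 in control cells at 24 h. All 3 Kbr arrays lay above all 3 control arrays and close to each other. The rise was 1.49-fold (adjusted p = 0.0306 at a log2 change of 0.58 and a standard error of 0.13). IFI35 had 7.37, 7.52 and 7.60 in Kbr cells at 24 h, against 7.976, 7.996 and 7.991 in control cells at 24 h, again with no overlap. It was 1.40-fold lower with Kbr (log2 change -0.49, standard error 0.12, adjusted p = 0.0407). Both calls were lost on leaving out any 1 of the 3 Kbr arrays of 24 h, control replicate 1 of 24 h or control replicate 2 of 24 h (adjusted p of IFIT3 0.0680 to 0.108). The call for IFI35 was also lost without control replicate 3 of 24 h or replicate 2 of either 48 h group, and over all these losses the adjusted p was 0.0560 to 0.132. IFIT3 was also lost with the mean of its probe sets (0.0591), and IFI35 without the filter (0.0586) or with quantile normalization repeated (0.0510). The count over the 31 genes then lay at 0 without any of those first 5 arrays, at 1 without Kbr or control replicate 2 of 48 h, and at 3 without control replicate 3 of 24 h, where IFITM1 (log2 change -1.37, adjusted p = 0.0422) and IFITM3 (-1.04, adjusted p = 0.0432) came in.

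IFIT1 and IFIT2, relatives of IFIT3, had larger differences with a wider spread. IFIT1, which recognises the cap of foreign RNA, had 9.36, 10.20 and 9.49 in Kbr cells at 24 h, against 8.43, 9.21 and 8.73 in control cells at 24 h. Every Kbr array was higher than every control array, and replicate 2 was the highest in both groups. The log2 change was 0.89 (standard error 0.36, adjusted p = 0.164, and 0.00759 with the replicate block). IFIT2, which has been linked to inhibition of translation and to cell death, had 8.32, 8.87 and 8.27 in Kbr cells at 24 h, against 7.67, 8.24 and 7.75 in control cells at 24 h. These groups did not overlap either (log2 change 0.60, adjusted p = 0.245, and 0.0077 with the block). IFIT5, which has no partner among the other IFIT proteins, differed by 0.23 (adjusted p = 0.323).

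IFI44, an interferon-induced gene of uncertain biochemical function, had 6.88, 7.62 and 6.76 in Kbr cells at 24 h, against 6.39, 6.74 and 6.39 in control cells at 24 h. The lowest Kbr array was just above the highest control array, and the log2 change of 0.58 did not pass (adjusted p = 0.379, and 0.0677 with the block). RSAD2, which encodes viperin, the enzyme that makes a chain-terminating nucleotide, had 3.84, 5.20 and 4.14 in Kbr cells at 24 h, against 3.60, 4.14 and 3.74 in control cells at 24 h. These values straddle the floor of the filter and overlap, and the log2 change was 0.57 (adjusted p = 0.426). A second RSAD2 probe set, above the floor on 4 arrays, gave 1.21 at 24 h.

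**Figure D1:**
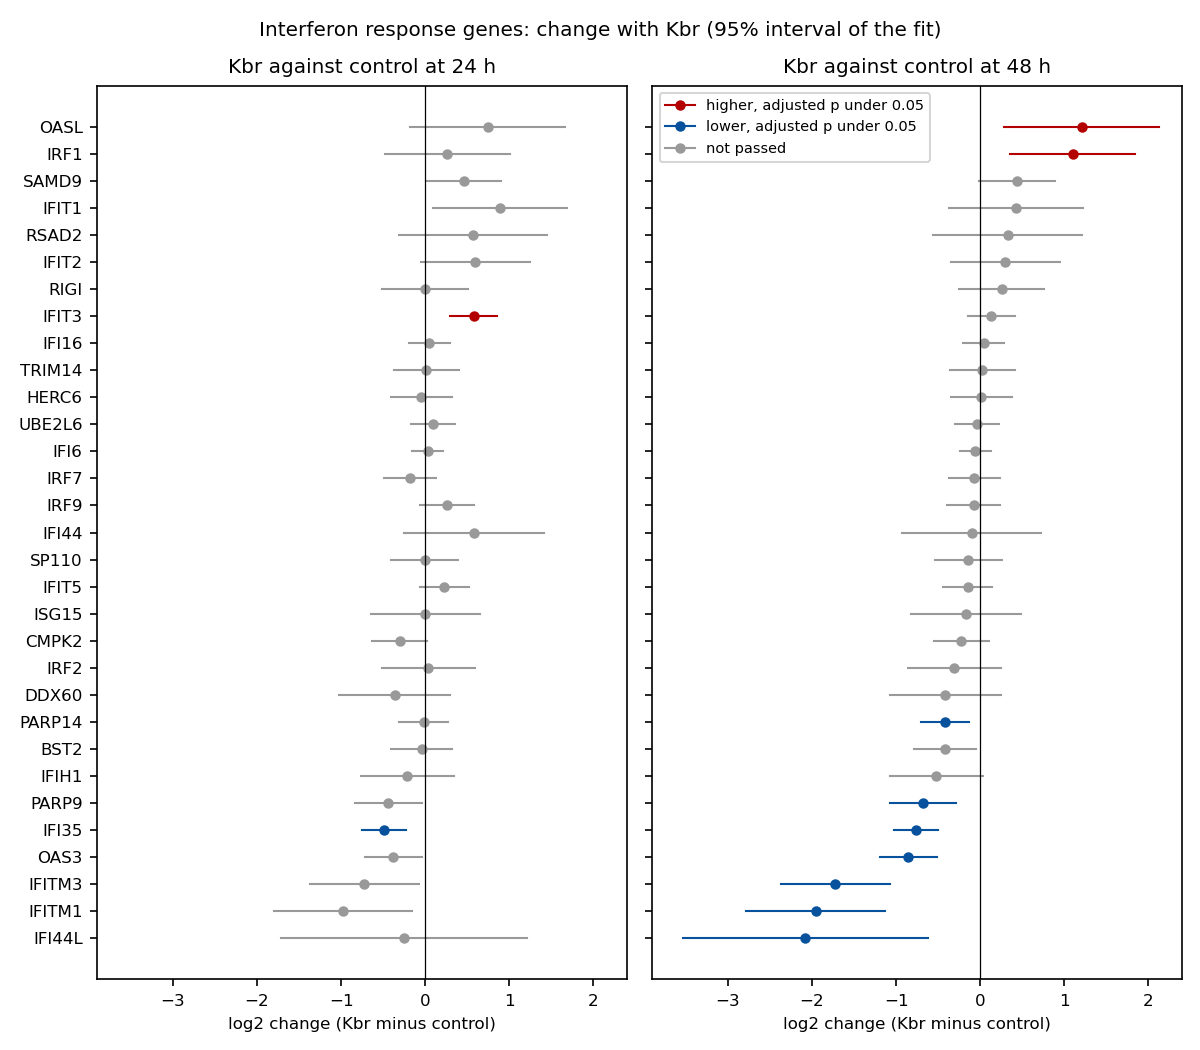
Log2 change with Kbr (Kbr minus control, x axis) of the 31 tested interferon response genes at 24 h (left) and 48 h (right); points are limma estimates from 3 arrays against 3, lines their 95% intervals, and colour marks the direction of genes with an adjusted p under 0.05. At 24 h IFIT3 and IFI35 are coloured, and at 48 h 2 genes are coloured as higher and 7 as lower.

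After 48 h the same question was asked of the longer exposure. The membrane proteins IFITM1 and IFITM3, which block fusion of viruses with the cell, and IFI44L fell most, at 3.89-fold, 3.30-fold and 4.22-fold lower with Kbr. OAS3, IFI35, PARP9 and PARP14 fell less. OASL, a relative of the OAS synthetases without their enzyme activity, and the transcription factor IRF1 rose 2.31-fold and 2.14-fold. In all 9 of the 31 tested genes passed (29.0%), where 42.8% of all genes passed at this time. Of the 31, 2 were higher (6.45%), where 22.0% of all genes were higher, and 7 were lower (22.6%), where 20.8% of all genes were lower. With the block 12 of the 31 passed (38.7%), where 57.5% of all genes passed. Of these 12, 3 were higher and 9 lower, where 28.7% of all genes were higher and 28.8% lower. The median log2 change of the 31 genes was -0.10, against -0.0038 over all genes. Of the 31 changes, 20 lay below 0 and 11 above, where 49.7% of all genes lay above 0. The arrays of the groups did not overlap in 11 of the 31 genes (35.5%), against 50.9% of all genes.

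IFITM1 had log2 values of 9.64, 9.77 and 9.24 in Kbr cells at 48 h, against 11.76, 11.64 and 11.13 in control cells at 48 h. IFITM3 had 10.07, 10.08 and 9.69 in Kbr cells at 48 h, against 11.97, 11.74 and 11.31 in control cells at 48 h. In both genes all Kbr arrays lay more than a log2 unit below all control arrays, and replicate 3 was the lowest in either group. The log2 change was -1.96 for IFITM1 (standard error 0.37, adjusted p = 0.002) and -1.72 for IFITM3 (standard error 0.29, adjusted p = 0.00105). The change at 24 h had been -0.98 for IFITM1 (adjusted p = 0.144, and 0.00451 with the block) and -0.72 for IFITM3 (adjusted p = 0.166, and 0.00512 with the block). The probe sets of IFITM1 and IFITM3 carry the array maker's suffixes for sets that can detect related transcripts, so their signals may not be separate. Among the genes called at 48 h, the sets that stand for OASL, IFI35 and PARP9 also carry such a suffix. IFITM2, a close relative that was not on the list of 40, had a change of -1.95 at 48 h (adjusted p = 0.000737).

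IFI44L, a relative of IFI44, had 6.62, 7.15 and 5.94 in Kbr cells at 48 h, against 9.22, 9.18 and 7.55 in control cells at 48 h. The groups did not overlap, although control replicate 3 lay more than a log2 unit below the other control arrays. The log2 change was -2.08 (standard error 0.66, adjusted p = 0.0266). IFI44L had 7.98, 7.96 and 6.51 in Kbr cells at 24 h, against 8.46, 8.44 and 6.31 in control cells at 24 h. Replicate 3 was far below the others in both groups at 24 h, the groups overlapped, and the change of -0.25 did not pass (adjusted p = 0.862). IFI44, next to it in name and kind, had 6.17, 7.17 and 6.86 in Kbr cells at 48 h, against 6.22, 7.69 and 6.58 in control cells at 48 h, with overlapping groups (log2 change -0.10, 95% interval -0.93 to 0.73).

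OAS3, the large family member that responds to long double-stranded RNA, had 6.14, 6.33 and 6.48 in Kbr cells at 48 h, against 7.03, 7.07 and 7.42 in control cells at 48 h. No Kbr array reached the lowest control array. It was 1.81-fold lower (log2 change -0.86, standard error 0.15, adjusted p = 0.0014). OAS3 had 7.34, 7.48 and 7.33 in Kbr cells at 24 h, against 7.64, 7.58 and 8.07 in control cells at 24 h, without overlap (log2 change -0.38, adjusted p = 0.162, and 0.040 with the block).

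OASL went the other way from OAS3. It had 6.29, 7.17 and 6.66 in Kbr cells at 48 h, against 4.46, 6.17 and 5.87 in control cells at 48 h. The lowest Kbr array was only just above the highest control array, and replicate 1 was the lowest in both groups. The log2 change was 1.21 (standard error 0.42, adjusted p = 0.0377), and a second OASL probe set gave 1.36 (adjusted p = 0.0276). At 24 h OASL had 5.98, 6.59 and 6.35 in Kbr cells, against 5.12, 6.13 and 5.44 in control cells, with overlap (log2 change 0.74, adjusted p = 0.309, and 0.0335 with the block).

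Among the transcription factors, IRF1, which activates many of these promoters and is itself induced through the gamma-activated site, had 8.33, 7.57 and 6.82 in Kbr cells at 48 h, against 6.71, 6.37 and 6.34 in control cells at 48 h. The 3 Kbr arrays were spread over more than a log2 unit, and the lowest lay just above the highest control array. The log2 change was 1.10 (standard error 0.34, adjusted p = 0.0223), and a second IRF1 probe set gave 0.45 (adjusted p = 0.117). At 24 h IRF1 had 6.98, 6.37 and 7.24 in Kbr cells, against 6.62, 6.33 and 6.85 in control cells, with overlap (log2 change 0.26, adjusted p = 0.693). The other 3 factors on the list did not pass at 48 h. The changes were -0.31 for IRF2, which can counteract IRF1, -0.07 for IRF7, the main factor for alpha interferon genes, and -0.08 for IRF9.

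IFI35 had 6.76, 6.90 and 7.04 in Kbr cells at 48 h, against 7.43, 7.71 and 7.85 in control cells at 48 h. Each Kbr array lay below each control array, as at 24 h, and the log2 change was -0.76 (standard error 0.12, adjusted p = 0.000662). PARP9, a macrodomain protein that works with the ubiquitin ligase DTX3L, had 7.79, 8.22 and 8.44 in Kbr cells at 48 h, against 8.50, 8.99 and 8.99 in control cells at 48 h. The highest Kbr array was just below the lowest control array (log2 change -0.68, standard error 0.18, adjusted p = 0.0108). PARP9 had 8.51, 8.79 and 8.71 in Kbr cells at 24 h, against 8.98, 9.16 and 9.18 in control cells at 24 h, also without overlap (log2 change -0.44, adjusted p = 0.167, and 0.0144 with the block). A second PARP9 probe set with values near the floor gave 0.01 at 48 h. PARP14, a mono-ADP-ribosyltransferase, had 8.17, 8.54 and 8.34 in Kbr cells at 48 h, against 8.73, 8.83 and 8.74 in control cells at 48 h (log2 change -0.42, standard error 0.13, adjusted p = 0.0248). These groups did not overlap, while at 24 h PARP14 had 8.23, 8.64 and 8.59 in Kbr cells, against 8.42, 8.64 and 8.46 in control cells, which did (log2 change -0.02, adjusted p = 0.958).

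The calls at 48 h were not equally firm. OAS3, IFI35, IFITM1, IFITM3 and PARP9 held in each of the 12 fits without 1 array, with adjusted p up to 0.0411. With probe sets averaged per gene in place of the highest set, PARP9 (-0.34, adjusted p = 0.0956) and PARP14 (-0.21, 0.0618) were lost, and OAS3 had a smaller change (-0.39, 0.0355). The second sets of PARP14 and OAS3 lay below the floor on every array (highest 2.52 and 3.67), and that of PARP9 reached 4.24. Averaging with a set that reads little or no signal shrinks a change in any case. These averaged values therefore cannot tell how firm the 3 calls are. Without the filter OASL, IRF1 and IFI44L were lost (adjusted p = 0.106, 0.067 and 0.0818), and with only the 48 h groups in the fit OASL and IRF1 were (0.0861 and 0.0565). OASL was lost without Kbr replicate 3 of 24 h, Kbr replicate 2 or 3 of 48 h or control replicate 1 of 48 h (adjusted p 0.0502 to 0.128, log2 change down to 0.69). IRF1 was lost without Kbr replicate 1 or 2 or control replicate 2 or 3 of 48 h (0.0552 to 0.0753). IFI44L (0.0576 to 0.0924) and PARP14 (0.0506 to 0.0892) were lost without Kbr replicate 1 or 3 or control replicate 1 or 2 of 48 h.

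**Figure D2:**
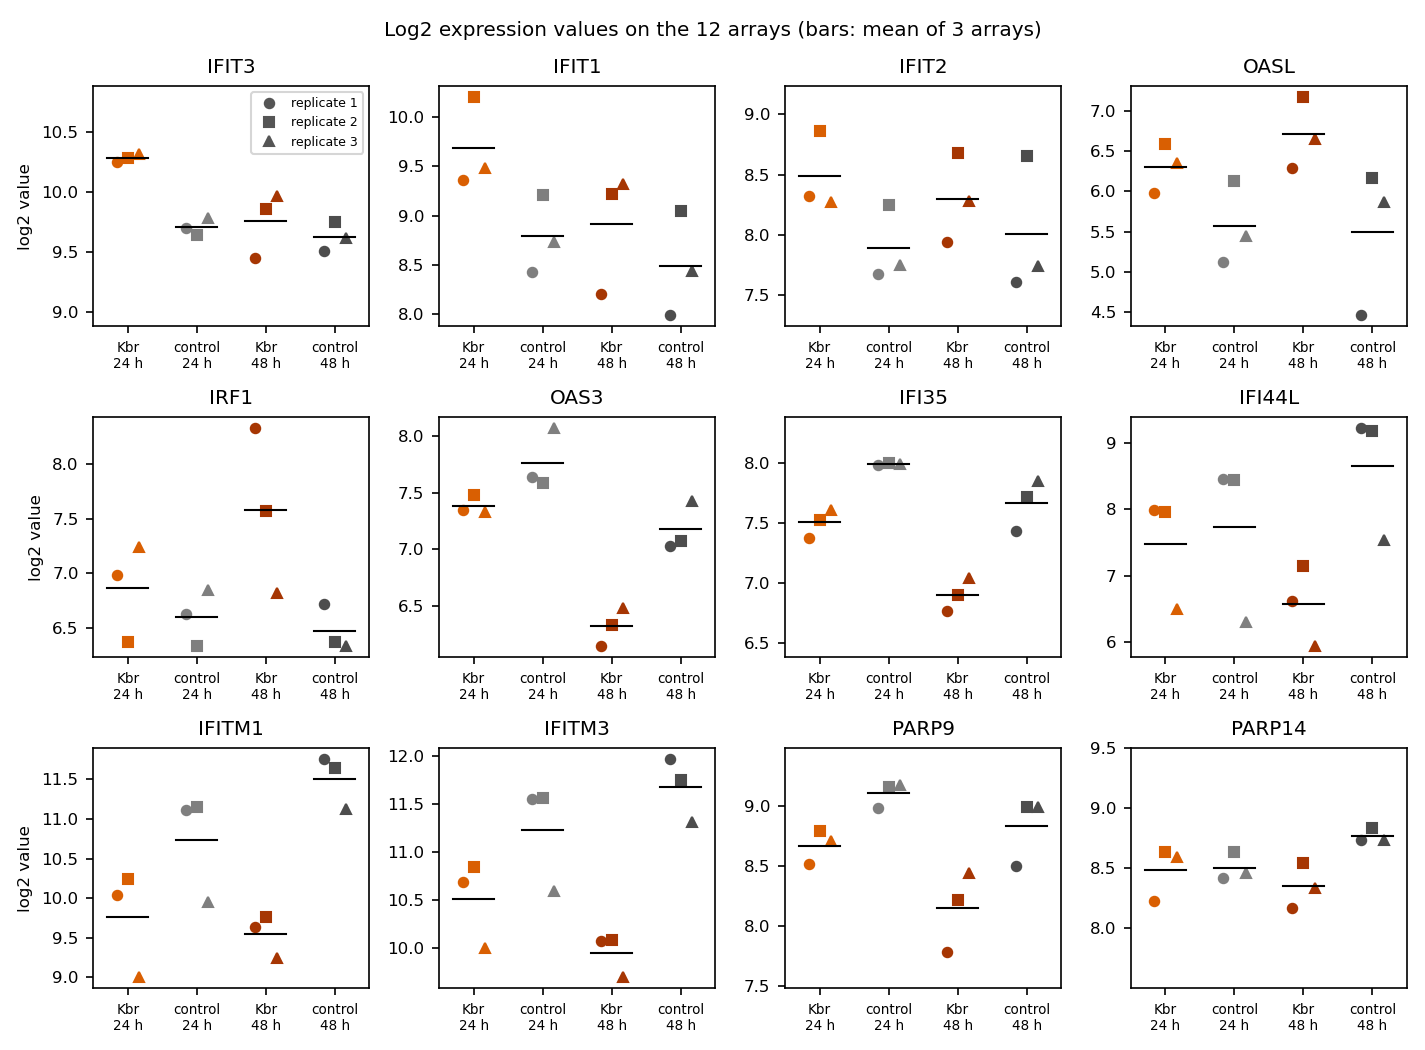
Log2 values of 12 interferon response genes on the 12 arrays, by group (x axis, Kbr left of its control at each time); each point is 1 array, its shape gives the replicate number, and bars are means of 3 arrays. Each panel has its own axis. IFIT3 is set apart in the Kbr arrays of 24 h, the lowest group of OAS3, IFI35, IFITM1 and IFITM3 is Kbr at 48 h, and replicate 3 is the lowest in every group of IFI44L, IFITM1 and IFITM3.

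The p values of the remaining tested genes of the list missed the threshold at 48 h, with log2 changes of -0.52 to 0.44. The IFIT genes that stood higher at 24 h had 9.45, 9.86 and 9.97 (IFIT3), 8.21, 9.22 and 9.32 (IFIT1) and 7.94, 8.68 and 8.28 (IFIT2) in Kbr cells at 48 h. Control cells at 48 h had 9.51, 9.75 and 9.62 (IFIT3), 7.99, 9.05 and 8.44 (IFIT1) and 7.61, 8.66 and 7.74 (IFIT2), so that the groups overlapped in each gene. The log2 changes at 48 h were 0.13 for IFIT3 (95% interval -0.15 to 0.42), 0.42 for IFIT1 (-0.37 to 1.22) and 0.30 for IFIT2 (-0.35 to 0.95). IFIT2 passed with the block (adjusted p = 0.0487), and IFIT3 did so without Kbr replicate 1 of 48 h (log2 change 0.29, adjusted p = 0.0481). RSAD2 had 3.63, 4.27 and 4.31 in Kbr cells at 48 h, against 2.92, 4.31 and 4.01 in control cells at 48 h, with overlap (log2 change 0.33). The second RSAD2 probe set gave 1.30 at 48 h (adjusted p = 0.0969 in a fit of every probe set by itself).

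Of the RNA sensors, RIGI differed by 0.26 at 48 h (adjusted p = 0.396), IFIH1, which encodes the sensor MDA5, by -0.52 (adjusted p = 0.116, and 0.0113 with the block), and the helicase DDX60 by -0.42 (adjusted p = 0.286). BST2, the tether that holds virus particles at the cell surface, differed by -0.42 (adjusted p = 0.0619, with 0.0207 under the block and 0.0444 without Kbr replicate 2 of 48 h). IFIH1 and BST2 arrays did not overlap between the groups.

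ISG15, UBE2L6 and HERC6 had small log2 changes at 48 h. HERC5, close to HERC6 in name, was higher with Kbr at 48 h (log2 change 0.53, adjusted p = 0.0259). HERC5 is read below with the further interferon-stimulated genes. ISG15, the ubiquitin-like modifier, had 9.36, 9.96 and 10.35 in Kbr cells at 48 h, against 9.55, 10.37 and 10.25 in control cells at 48 h, and 10.27, 10.89 and 10.66 in Kbr cells at 24 h, against 10.20, 10.85 and 10.76 in control cells at 24 h. The groups overlapped at both times, and the log2 changes were 0.0017 at 24 h (95% interval -0.65 to 0.65) and -0.17 at 48 h (-0.82 to 0.49). Its conjugating enzyme UBE2L6 differed by -0.04 at 48 h (95% interval -0.30 to 0.22), and HERC6, whose mouse counterpart is an ISG15 ligase, by 0.015 (-0.35 to 0.38). The remaining genes were the nuclear sensor IFI16 (0.04), the anti-apoptotic protein IFI6 (-0.06), the signalling adaptor TRIM14 (0.03), the antiviral factor SAMD9 (0.44, adjusted p = 0.108), the nuclear body protein SP110 (-0.14), the nucleotide kinase CMPK2 (-0.22) and IFIT5 (-0.15).

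Other probe sets of the same genes mostly had changes of the same sign. Among 26 further probe sets of tested genes, 17 passed the filter, and 13 of the 17 had the sign of the chosen set at 24 h and 13 at 48 h. SAMD9, IFIT5 and SP110 were among those that disagreed in size. A second SAMD9 probe set, above the floor on all 12 arrays, gave 0.05 at 24 h and -0.0075 at 48 h. The chosen SAMD9 set gave 0.46 and 0.44. A second IFIT5 probe set gave -0.59 at 48 h (adjusted p = 0.00509 in a fit of every probe set by itself), and other SP110 sets gave -1.04 (adjusted p = 0.0105) and -0.64 (adjusted p = 0.0357), so that a call on either gene depends on which set stands for it.

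The next comparison was between the effects of Kbr at the 2 times. The 48 h effect minus the 24 h effect passed in 0 of the 31 genes by limma, where 0.141% of all genes passed. At an unadjusted p under 0.05 there were 2, IFIT3 and IFITM3 (6.45%), both with a lower effect at 48 h, where 16.1% of all genes reached that level and 6.92% did so in this direction. With the block, 3 of the 31 passed (9.68%), all with a lower effect at 48 h, where 7.36% of all genes passed and 3.95% with a lower effect. These were IFI44L with a difference of -1.82 (adjusted p = 0.368, and 0.0178 with the block), IFITM1 with -0.98 (0.392, and 0.0403) and IFITM3 with -1.002 (0.271, and 0.0186). For IFIT3 the difference was -0.44 (standard error 0.18, adjusted p = 0.260), and for IRF1 it was 0.84 (standard error 0.48, adjusted p = 0.411). The median difference over the 31 genes was -0.24, against 0.013 over all genes. Of the 31 differences, 24 lay below 0 and 7 above, where 51.9% of all genes lay above 0.

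The arrays also show how the genes moved with time in each culture. These comparisons share arrays with those above and are no separate observations. In control cells at 48 h against 24 h, 0 of the 31 genes passed by limma, where 3.29% of all genes passed, and 4 (OAS3, IFI35, TRIM14 and HERC6) reached an unadjusted p under 0.05 (12.9%), all lower at 48 h, where 21.4% of all genes did so and 12.2% were lower. With the block the count was 9 (29.0%), where 22.5% of all genes passed. IFI44L (log2 change 0.91), IFITM1 (0.77) and IFITM3 (0.44) were then higher at 48 h, where 9.23% of all genes were. ISG15 (-0.55), OAS3 (-0.59), IFI35 (-0.32) and TRIM14 (-0.40) were lower, with SP110 and HERC6, where 13.3% of all genes were. OAS3 passed without control replicate 3 of 48 h (log2 change -0.71, adjusted p = 0.0360).

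In Kbr cells at 48 h against 24 h, 3 of the 31 genes passed (9.68%), where 10.6% of all genes passed. All 3 were lower at 48 h, where 5.04% of all genes were: OAS3 by a log2 change of -1.06 (standard error 0.15, adjusted p = 0.00428), IFI35 by -0.60 (standard error 0.12, adjusted p = 0.0136) and IFIT3 by -0.53 (standard error 0.13, adjusted p = 0.0285). With the block 12 passed, 1 higher (RIGI, log2 change 0.47) and 11 lower, where 30.7% of all genes passed, 14.2% higher and 16.4% lower. OAS3 held in each of the 12 fits without 1 array. IFIT3 was lost without any Kbr array of 24 h or Kbr replicate 1 or 2 of 48 h (adjusted p 0.0659 to 0.0925), and IFI35 without Kbr replicate 3 of 24 h or Kbr replicate 1 or 2 of 48 h (0.0516 to 0.0574). With only the Kbr groups in the fit both were lost (0.101 and 0.0546), as was IFIT3 with the mean of its probe sets (0.0592). IRF1 (log2 change 1.09, adjusted p = 0.0260), IRF9 (-0.51, 0.0464) and PARP9 (-0.67, 0.0278) came in without Kbr replicate 3 of 48 h, and IRF9 also without control replicate 2 of 48 h (-0.43, 0.0320). The means of IFI44L differed in opposite directions with time, with 6.57 ± 0.61 at 48 h against 7.48 ± 0.85 at 24 h in Kbr cells, and 8.65 ± 0.96 at 48 h against 7.74 ± 1.2 at 24 h in control cells (SD, n = 3 each). IFITM1 averaged 9.55 ± 0.27 at 48 h against 9.76 ± 0.67 at 24 h in Kbr cells, and 11.51 ± 0.34 at 48 h against 10.74 ± 0.68 at 24 h in control cells.

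In part of these genes the replicate number gave the same order in every group. Replicate 1 was the lowest array in all 4 groups in 8 of the 31 genes (25.8%), IFIT1, ISG15, OASL, IFI35, PARP9, PARP14, SP110 and RSAD2, where this held in 6.74% of all genes. Replicate 2 was the highest in all 4 groups in 8 (25.8%), IFIT2, OASL, IFI44, IFIH1, DDX60, BST2, PARP14 and CMPK2, where it held in 5.85% of all genes. Replicate 3 was the lowest in all 4 groups in 3, IFI44L, IFITM1 and IFITM3 (9.68%, against 8.23% of all genes), and the highest in 3 (9.68%, against 8.10%). Replicate 1 was the highest in all 4 groups in 2 (6.45%, against 10.5%), and replicate 2 the lowest in 1 (3.23%, against 14.3%). These shares are descriptions, and genes of the same array are not independent of each other. In OASL, for example, Kbr replicate 1 at 48 h (6.29) lay close to control replicate 2 (6.17). Within each replicate number OASL was higher in Kbr than in control cells at both times. The 3′ minus 5′ difference was highest in replicate 2 for ACTB and in replicate 1 for GAPDH in every group. The part of RNA quality in these orders was not tested.

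**Figure D3:**
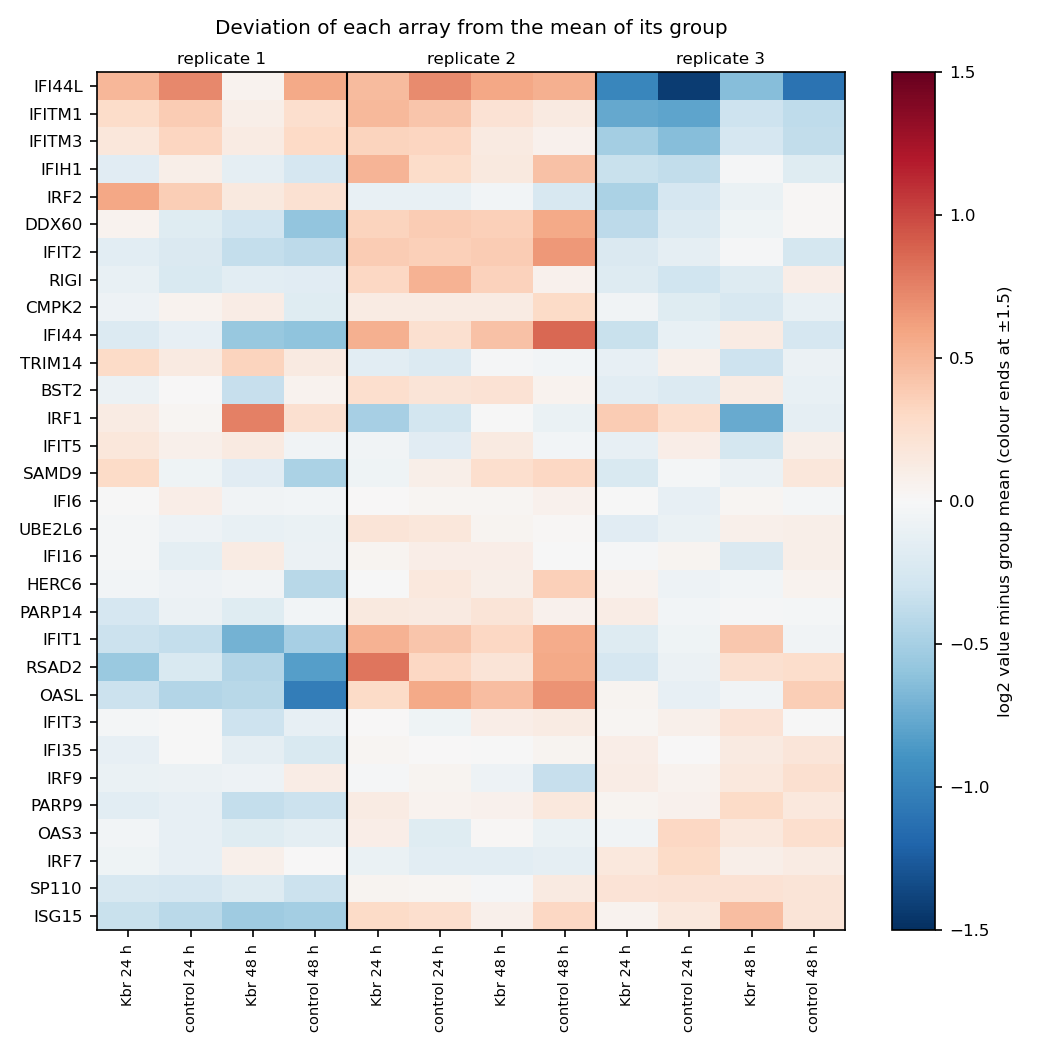
Deviation of each array from the mean of its group (colour, log2 units) for the 31 tested interferon response genes (rows), with the arrays grouped by replicate number and Kbr left of its control at each time. The 4 columns of a replicate number carry like colours in many rows, such as the low values of IFI44L, IFITM1 and IFITM3 in replicate 3 and of OASL and ISG15 in replicate 1.

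Other genes of the pathway, none of them among the 40, were read from lists of neighbours in function. Of 14 receptor and JAK-STAT genes listed, 11 were tested. At 24 h 1 was lower, the second chain of the interferon gamma receptor IFNGR2, and at 48 h 3 were lower, with 5 lower under the block at each time, and 0 were higher. Over all genes 2.48% were higher and 3.25% lower at 24 h (10.4% and 14.0% with the block). At 48 h 22.0% were higher and 20.8% lower (28.7% and 28.8% with the block). IFNGR2 had log2 values of 9.22, 9.36 and 9.47 in Kbr cells at 48 h, against 10.18, 10.12 and 10.11 in control cells at 48 h, with no overlap and a tight control group. Its log2 change was -0.54 at 24 h (adjusted p = 0.0116, lost without Kbr replicate 2 or 3 or control replicate 1 of 24 h, up to 0.0628) and -0.79 at 48 h (adjusted p = 0.000148). The feedback inhibitor SOCS3 had 7.00, 7.63 and 8.18 in Kbr cells at 48 h, against 8.86, 9.09 and 9.45 in control cells at 48 h (log2 change -1.53, adjusted p = 0.0019). The receptor chain IFNAR2 differed by -0.31 (adjusted p = 0.0421, kept in 3 of 12 fits without 1 array, up to 0.151).

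Of 16 genes of nucleic acid sensing, 11 were tested. At 24 h 1 was higher, beside 2.48% of all genes, with 2 higher under the block, beside 10.4%. At 48 h 3 were higher and 1 was lower (3 and 2 under the block), beside 22.0% and 20.8% of all genes (28.7% and 28.8% under the block). CGAS, the sensor of DNA in the cytosol, had 6.64, 6.82 and 7.31 in Kbr cells at 48 h, against 5.00, 5.01 and 5.87 in control cells at 48 h, with no overlap (log2 change 1.63, standard error 0.26, adjusted p = 0.000691). The kinase TBK1, which activates the factors that switch on interferon genes, had 9.85, 10.01 and 10.08 in Kbr cells at 48 h, against 9.17, 9.28 and 9.38 in control cells at 48 h. Its log2 change was 0.70 at 48 h (adjusted p = 0.000321) and 0.37 at 24 h (adjusted p = 0.0497, kept in 3 of 12 fits without 1 array, up to 0.177). The adaptor TRAF3 was higher at 48 h by 0.54 (adjusted p = 0.0101), and MAVS, the adaptor of the RNA sensors on mitochondria, was lower by -0.32 (adjusted p = 0.0195, lost without Kbr replicate 1 or control replicate 2 of 48 h, up to 0.0703).

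Of 30 further interferon-stimulated genes, 21 were tested. At 24 h 0 passed, beside 5.74% of all genes, with 3 lower under the block, beside 14.0%. At 48 h 2 were higher and 5 lower (3 and 9 under the block), beside 22.0% and 20.8% of all genes (28.7% and 28.8% under the block). The RNA-activated kinase EIF2AK2 was higher by 0.32 (adjusted p = 0.0149, lost without Kbr replicate 2 of 48 h at 0.0626). HERC5 was higher by 0.53 (adjusted p = 0.0259, and 0.00067 with the block). The HERC5 call was lost without Kbr replicate 2 or control replicate 1 or 3 of 48 h (up to 0.0952). IFITM2 (-1.95) and DDX60L (-0.54, adjusted p = 0.00817) were among the lower genes, as was PARP10 (-0.57, adjusted p = 0.0182, lost without Kbr replicate 1 or control replicate 1 or 3 of 48 h, up to 0.0680).

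Of 26 genes of the interferon gamma response and antigen presentation, 18 were tested. At 24 h 0 passed, beside 5.74% of all genes, with 1 higher and 4 lower under the block, beside 10.4% and 14.0%. At 48 h 2 were higher and 9 lower (2 and 12 under the block), beside 22.0% and 20.8% of all genes (28.7% and 28.8% under the block). The immunoproteasome subunits PSMB9, PSMB8 and PSMB10 were lower with log2 changes of -1.07, -0.45 and -0.58 (adjusted p = 0.000122, 0.00149 and 0.0044). PSMB9 had 6.76, 7.16 and 7.08 in Kbr cells at 48 h, against 8.03, 8.08 and 8.11 in control cells at 48 h. The peptide loading protein TAPBP had 9.55, 9.49 and 9.94 in Kbr cells at 48 h, against 11.02, 10.67 and 10.81 in control cells at 48 h (log2 change -1.17, adjusted p = 0.000338). In both genes the Kbr arrays lay far below the control arrays. Against this direction, HLA-E rose by 0.47 (adjusted p = 0.00853) and the tryptophanyl-tRNA synthetase WARS1, which also answers to other stresses, by 0.97 (adjusted p = 0.00843). The chemokines CXCL9, CXCL10 and CXCL11, with IDO1, CIITA and HLA-DRA, stayed below the filter. The median log2 change at 48 h was -0.44 over these 18 genes, -0.20 over the receptor and JAK-STAT genes, -0.064 over the sensing genes and -0.25 over the further interferon-stimulated genes, beside -0.0038 over all genes tested. The same arrays underlie every list, and no test of one list against another was made.

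**Figure D4:**
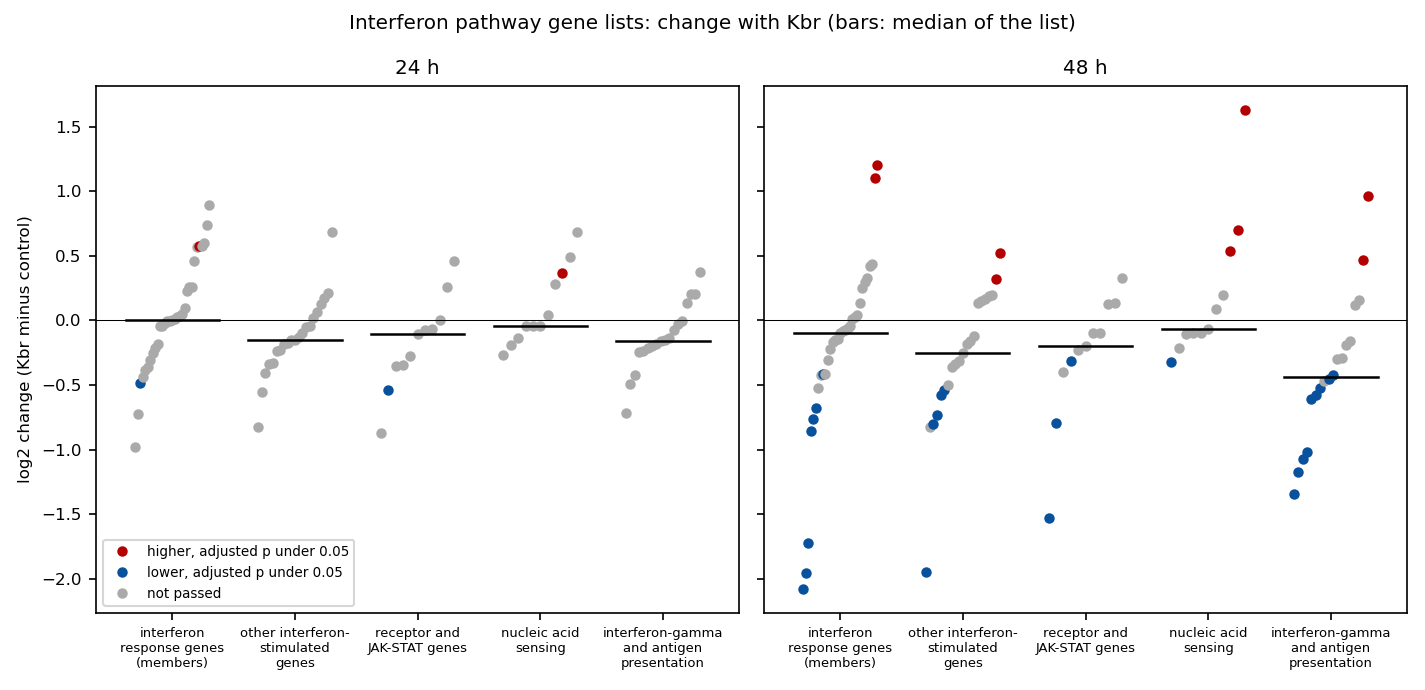
Log2 change with Kbr (Kbr minus control, y axis) of each tested gene, for the 31 interferon response genes and 4 lists of neighbouring function, at 24 h (left) and 48 h (right); each point is a gene, bars are list medians, and colour marks the direction of genes with an adjusted p under 0.05. At 48 h the antigen presentation list has the lowest median, -0.44, and CGAS the highest single change, 1.63.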

How the data were processed

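Biotin-labelled RNA of 12 HK-2 cultures was read on Affymetrix arrays. The deposited values are log2 expression values of 54675 probe sets, made by the authors with GCRMA per the submitters' processing notes; that they are log2 values was read from their range. GCRMA models background from probe sequence, normalizes by quantiles and pulls weak probe sets to a floor, so changes near a log2 value of 4 are compressed. Its version, and whether further arrays were normalized together, are not named in these sources. Groups follow the labels' treatment and time. The probe set with the highest mean over 12 arrays stood for a gene, and genes above 4 on at least 3 arrays were tested: 10665 of 19775. A model of 4 group means was fitted with limma 3.58.1 (lmFit, eBayes) in R 4.3.3, two-sided, with Benjamini-Hochberg adjustment over all tested genes and a threshold of 0.05. The number of arrays limits precision.

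The replicate numbers come from the labels and pair the arrays: deviations from group means correlated at 0.279 to 0.701 over 18 pairs of the same number. Over 36 pairs of different numbers the correlation was -0.454 to -0.0613. Each of the 12 arrays correlated best, among arrays of other groups, with one of its own number. The main fit leaves this pairing out, so its standard errors include the spread between replicate numbers. The fit with the replicate number as a block was an alternative, beside no filter, a floor of 6, repeated quantile normalization, subtraction of array medians, a mean over each gene's probe sets, only the groups compared, a trend with robust variance, leaving out each array, and, added after seeing the data, every probe set by itself. Values on every array are given for genes past the test in a Kbr comparison and for the 4 others with the largest change. The genes and lists were chosen with earlier results of these data known. Promoter sequences are RefSeq's on GRCh38.p14. The test was checked on simulated data.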

Additional observations from a re-analysis of the deposited data

Results flagged for a closer look

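The effect of Kbr at 48 h minus that at 24 h passed the test in 3 interferon response genes once the replicate number was a block in the fit, with a difference of -1.82 for IFI44L, -0.98 for IFITM1 and -1.002 for IFITM3 on the log2 scale (adjusted p = 0.0178, 0.0403 and 0.0186 by limma). Of all tested genes 7.36% passed with the block and 0.141% without it. Without the block the adjusted p of the 3 genes was 0.368, 0.392 and 0.271. In these genes replicate 3 was the lowest array in all 4 groups, and IFITM1 and IFITM3 were read by probe sets that can detect related transcripts, whose part in the result was not tested.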

How the results depend on the processing

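Of the member counts under the alternatives, 79 stayed within 1.5 times the count reported and 20 moved beyond it. At 24 h the count of 2 became 1 with the mean of probe sets, without the filter or with quantile normalization repeated, 9 with the replicate block, and 0 to 3 without 1 array. At 48 h the count of 9 (2 higher, 7 lower) was 6 to 9 without 1 array, 6 without the filter and 7 with only the groups compared, both with 0 higher, and without Kbr replicate 2 of 48 h it was 8 with 0 higher. For the difference between times the count of 0 became 3 with the block and stayed at 0 to 0 without 1 array, and only the groups compared could not be fitted. In control cells over time 0 became 9 with the block and 0 to 1 without 1 array. In Kbr cells over time 3 became 1 with only the groups compared, 12 with the block and 1 to 6 without 1 array. Calls over all tested genes rose with the block as well, from 5.74% to 24.4% at 24 h and from 0.141% to 7.36% for the difference. Over time they rose from 3.29% to 22.5% in control cells and from 10.6% to 30.7% in Kbr cells. Of the values of single genes 557 kept their call, 52 lost it, 11 gained it and 10 changed sign. The changes of sign were IFI44L at 24 h without Kbr replicate 3 (0.24) or control replicate 1 (0.11) or 2 (0.10) of 24 h, over a range of -0.97 to 0.24 without 1 array; PARP14 at 24 h without Kbr replicate 1 (0.11) or control replicate 2 (0.05) of 24 h, over -0.093 to 0.11; IFI44 at 48 h without Kbr replicate 1 (0.18) or control replicate 2 (0.33) of 48 h, over -0.40 to 0.33; RSAD2 at 48 h without control replicate 1 of 48 h, over -0.086 to 0.61. The second PARP9 probe set gave 0.13 at 24 h and 0.0054 at 48 h, opposite in sign to the first. The cause was not tested. Signal near the floor limits RSAD2 and the 8 genes below it, for which no change could be read.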
